A study of Rattus norvegicus with 20 samples.

Results

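The genes described here encode the mitochondrial respiratory chain and ATP synthase, together with the assembly factors that share their names. A gene was included when its probe set carried 1 symbol beginning with Nduf, Sdha, Sdhb, Sdhc, Sdhd, Uqcr, Cox4 to Cox8 or Atp5. The testis isoforms Cox7b2 and Cox6b2 were left out, and the probe set with the highest mean signal stood for each gene. This gave 88 of the 14217 genes with 1 symbol. Of these, 34 encode subunits of complex I, 4 of complex II, 7 of complex III, 16 of complex IV and 16 belong to complex V, the ATP synthase, counted with its inhibitor Atp5if1. A further 10 are assembly factors, and Cox6c-ps1 is named as a pseudogene. The rule used no measured difference between groups, but the genes were chosen with earlier results of these data known.

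The arrays measured RNA of Sprague-Dawley rat embryonic testis in 10 groups of 2 arrays, labelled as biological replicates. Dams were injected daily from E8 to E14 with 100 mg/kg/day of the antiandrogenic fungicide vinclozolin or with its DMSO vehicle, and testes were taken at E13, E14 or E16. For culture, gonads of E13 embryos stayed joined to the mesonephros for 3 days in medium with insulin and transferrin. One gonad of a pair received 50 µM vinclozolin in DMSO and the other DMSO alone, or 0.5 µM flutamide, an androgen receptor antagonist, in ethanol and the other ethanol alone. RNA was then taken from the testis alone, without the mesonephros. Sex had been read by PCR for Sry. The number of embryos behind an array is not given in the sources used here, so the p-values measure only the spread between these arrays.

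The respiratory chain passes electrons from NADH, through complex I, and from succinate, through complex II, to complexes III and IV and finally to oxygen. Complexes I, III and IV pump protons, and the ATP synthase uses the return of those protons to make ATP. The nuclear genes of most subunits are studied here, while a core of subunits is encoded in mitochondrial DNA and was not analysed here. In the testis, mitochondria of Leydig cells also hold the enzyme that begins steroid synthesis.

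Signal is the deposited intensity on a linear scale, and differences are on the scale of log2(signal + 16), which understates the change of dim genes. A gene is said to rise or fall only where limma's adjusted p was under 0.05. Of the 88 genes, 86 were tested. The muscle isoforms Cox6a2 and Cox8b were too dim, at 0.7 to 39.2 and 0.7 to 14.8. The subunit genes were among the brightest of their arrays: in utero, the median subunit lay between percentiles 97.5 and 98.5 of all probe sets.

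Some arrays stood apart. The E13 arrays numbered 1 had Xist, the RNA of the inactive X chromosome of female cells, at 758.6 (vehicle) and 896 (vinclozolin), against 20.4 and 17.9 on the arrays numbered 2. Amh, the Sertoli cell hormone, was at 106 and 372.4 on the arrays numbered 1, against 1484.7 and 1102.2. On these arrays, labelled E13 testis, Xist was high and Amh low. The respiratory genes were lower on array 1 in 71 of 86 cases for vehicle and 72 of 86 for vinclozolin, against 60.1% and 56.1% of all genes tested. The E14 vinclozolin array 2 had Xist at 489.9, and 78 of the 86 genes were lower on it than on array 1. Both E14 vehicle arrays had Xist at 174.9 and 184.4, the other E14 vinclozolin array at 32.0, and the 4 E16 arrays at 2.4 to 16.6. Amh was at 1553.9 on E14 vehicle array 1 and 5697.9 on array 2, against 5795.5 and 4892.5 with vinclozolin. Summed marker signals of the E14 vehicle arrays spanned 7442.4 to 15990.7 for Sertoli cells, 934.7 to 2043.2 for mesonephros and 3572.9 to 13348 for blood. For endothelium they spanned 1982.9 to 1986.6. The 4 arrays of the flutamide culture had Xist at 168.2 to 211.9 and a 3' to 5' signal ratio of beta-actin of 9.08 to 11.06, against 1.73 to 3.9 on the other 16 arrays. In the vinclozolin culture, vinclozolin replicate 2 had Xist at 112.8, against 5.1 on replicate 1 and 5.2 and 5.4 in DMSO. It also had the lowest Amh of that culture, 1902.3, and the highest beta-actin ratio, 3.9. The medians of that culture given below include this array. Several counts that rest on the E13 arrays numbered 1 and on E14 vinclozolin array 2 are given below with and without them. The count for ethanol culture against E13 vehicle is not given without E13 vehicle array 1. The flutamide and ethanol comparisons, and those with E14 vehicle, include a group whose arrays all had Xist at 168.2 or more, and cannot be given without them.

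Promoters of nuclear respiratory genes are known for sites of NRF1, of the ETS factor GABPA and of YY1. RefSeq promoters of the GRCr8 assembly, 250 bases before to 50 after the start, were matched for 80 of the 88 genes and searched on both strands. The YY1 string AAGATGGCG was in 11 of 80 (13.75%) against 3.14% of the 11700 promoters of genes with a probe set and 2.29% of all 19005 promoters of that length. The ETS string CCGGAAG was in 25 of 80 (31.25%) against 15.1% and 11.2%, and the NRF1 core GCGCATGC in 9 of 80 (11.25%) against 4.29% and 3.23%. The NFY string CCAAT was in 27 of 80 (33.75%) against 37.3% and 38.4%. Median GC content was 56% for these genes, 60.0% for promoters of genes with a probe set and 55.33% for all promoters.

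The windows of 3 genes are printed to show these strings beside the stage course that follows: Ndufa6 and Atp5pf rose from E14 to E16 in both arms, and Uqcrc1, which holds the same YY1 string, did not. Each window runs from 200 bases before to 30 after the start, and capitals mark the strings found, on either strand. They lie at chr7:115750288-115750517 (minus strand), chr11:37375072-37375301 (minus strand) and chr8:118468023-118468252 (plus strand) of GRCr8. The Atp5pf window lies inside the annotated gene, which extends to 37375721, so the start used there is an internal one.
Ndufa6: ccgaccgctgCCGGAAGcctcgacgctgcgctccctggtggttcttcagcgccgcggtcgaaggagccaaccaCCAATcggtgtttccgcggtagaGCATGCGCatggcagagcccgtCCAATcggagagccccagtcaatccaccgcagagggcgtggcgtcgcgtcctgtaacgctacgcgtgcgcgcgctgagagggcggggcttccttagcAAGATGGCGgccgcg
Atp5pf: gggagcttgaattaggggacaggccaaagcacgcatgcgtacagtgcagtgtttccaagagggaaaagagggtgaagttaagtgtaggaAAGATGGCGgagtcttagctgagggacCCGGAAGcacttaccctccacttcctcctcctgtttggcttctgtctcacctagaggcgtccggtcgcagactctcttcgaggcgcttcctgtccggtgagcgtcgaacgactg
Uqcrc1: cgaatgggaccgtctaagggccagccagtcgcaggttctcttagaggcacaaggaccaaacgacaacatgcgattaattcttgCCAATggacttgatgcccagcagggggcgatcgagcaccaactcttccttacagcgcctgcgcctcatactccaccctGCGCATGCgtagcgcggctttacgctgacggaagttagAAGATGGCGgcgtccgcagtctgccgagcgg
In Ndufa6 the ETS string begins at -190, the NFY strings at -127 and -82, the NRF1 core at -104 and the YY1 string at 16. In Atp5pf the YY1 string begins at -111 and the ETS string at -84. In Uqcrc1 the NFY string begins at -117, the NRF1 core at -39 and the YY1 string at -1. No printed match overlaps another. The YY1 string was in 4 of the 26 matched genes that rose in both arms and in 7 of the other 54, the ETS string in 10 and 15, the NRF1 core in 4 and 5, and the NFY string in 11 and 16. A match is a string in the window and no measured binding.

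From E14 to E16, signal of many respiratory genes went up in the vehicle testes. Of 86 genes, 36 rose and 0 fell, where 12.6% of all genes tested rose and 12.9% fell. The median difference was 0.39, against -0.05 over all genes tested. Under quantile normalization 30 rose and 3 fell (Uqcrc1, Atp5f1b and Atp5mc3), with a median of 0.28 against 0.03 over all genes tested. Xist was at 5.6 and 2.4 on the E16 vehicle arrays, against 174.9 and 184.4 at E14, and the beta-actin 3' to 5' ratio was 2.99 and 2.60 at E16 against 1.98 and 1.80 at E14. Their part in the result was not tested. The risers were spread over the complexes: 13 of 34 in complex I, 1 of 4 in complex II, 4 of 7 in complex III, 4 of the 14 tested in complex IV, 10 of 16 in complex V and 4 of 10 assembly factors.

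The vinclozolin arm holds other arrays of the same stages. There, 37 of 86 rose and 0 fell (15.4% and 18.3% of all genes tested), with a median of 0.41. This comparison was added after its values were seen. By complex, 15 of 34 rose in complex I, 1 of 4 in complex II, 3 of 7 in complex III, 6 of 14 in complex IV, 9 of 16 in complex V and 3 of 10 assembly factors. The count was 14 without E16 vinclozolin replicate 1, 21 without E14 vinclozolin replicate 2 and 24 with only the groups compared in the fit. Under quantile normalization 26 rose and 3 fell (Atp5f1a, Atp5f1b and Uqcrc1), with a median of 0.28. The beta-actin ratio was 1.73 and 2.93 at E14 and 2.48 and 2.67 at E16 in this arm, where the stages overlapped. Both arms shared 28 risers, which are 77.78% of the 36 and 75.68% of the 37. The differences of the arms had the same sign for 76 of 86 genes, with r = 0.83 across genes, which are not independent replicates. The overlap and the agreement of signs were not computed over all genes tested. They are therefore not shown to be particular to the respiratory genes.

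**Figure D1:**
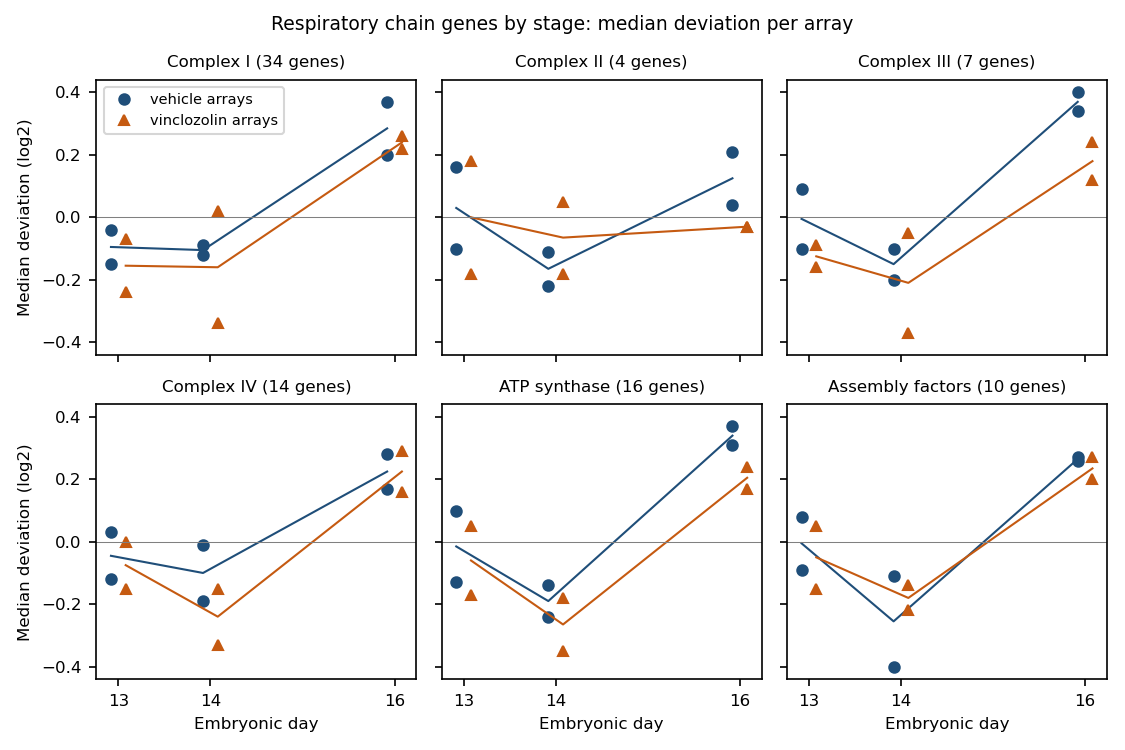
Median deviation of the genes of each complex from their own mean over the 12 in utero arrays (y axis, log2) by embryonic day (x axis), 1 panel per complex, with 1 point per array (circles vehicle, triangles vinclozolin) and lines through the mean of the 2 arrays. In complex I the E16 arrays lie between 0.20 and 0.37 and the earlier ones between -0.34 and 0.02, while in complex II the stages overlap.

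Complex I is the entry point for electrons from NADH. Ndufb3, an accessory subunit of its membrane arm, was at 2038.3 and 1856.1 on the E14 vehicle arrays and at 3663.3 and 3758.2 at E16. In the vinclozolin arm it was at 1827.4 and 1661.6, then 3128.2 and 3157.1. All 4 E16 arrays were above all 8 earlier ones, the highest of which was 2501.1. The difference was 0.93 ± 0.13 (SE, n = 2 arrays a group, limma adjusted p = 0.000313) in vehicle and 0.84 (adjusted p = 0.000351) in vinclozolin. Ndufb1, another accessory subunit, went from 2019.5 and 1748.4 to 3965.5 and 3874.4 in vehicle (1.05 ± 0.21 SE, limma adjusted p = 0.00305). In the vinclozolin arm it went from 1984.3 and 1623.5 to 3321.7 and 2827.8, a difference of 0.77. Ndufa2 rose by 0.92 and 0.62 in vehicle and vinclozolin, Ndufa1 by 0.87 and 0.83, and Ndufa6, whose promoter is printed above, by 0.82 and 0.78. The core subunits include those that carry the flavin and the iron-sulfur clusters. Of 6 core subunits tested, only Ndufv2 rose in vehicle, and their median was 0.07, while 12 of 28 accessory subunits rose, with a median of 0.41. In the vinclozolin arm 2 of 6 core and 13 of 28 accessory subunits rose, with medians of 0.17 and 0.41. Ndufb3, Ndufa1 and Ndufa6 passed in both arms whichever array was left out, while Ndufb1 and Ndufa2 did not pass in vinclozolin without E14 replicate 2 or E16 replicate 1, and Ndufv2 did not in vehicle without replicate 2 of either stage. This division of roles was made after the values were seen, and the difference between the classes was not tested.

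Complex II, succinate dehydrogenase, is also an enzyme of the citric acid cycle and is wholly nuclear-encoded. Its iron-sulfur subunit Sdhb was at 2629.3 and 2658.9 at E14 in vehicle and at 3587.6 and 3878.0 at E16 (0.49 ± 0.14 SE, limma adjusted p = 0.0210). In vinclozolin it was at 2983.7 and 2255.2, then 3849.3 and 3551.1 (0.51, limma adjusted p = 0.0143). The E16 arrays were all above those of E14, and above those of E13, which ended at 3258.5. Without E14 vehicle replicate 1, E14 vehicle replicate 2 or E16 vehicle replicate 2, Sdhb did not pass in vehicle (highest limma adjusted p = 0.108), nor in vinclozolin without E14 replicate 2 or E16 replicate 1 (highest limma adjusted p = 0.140). Under quantile normalization Sdhb did not pass in either arm, and the complex II medians were 0.10 in vehicle and -0.07 in vinclozolin. The other subunits did not pass the test in either arm, with either normalization. The flavoprotein Sdha differed by 0.22 and -0.16 in vehicle and vinclozolin, and the membrane anchors Sdhc by -0.07 and -0.19 and Sdhd by 0.38 and 0.26.

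Complex III hands electrons from ubiquinol to cytochrome c, and its large core proteins are Uqcrc1 and Uqcrc2. Uqcrc2 was at 2270.1 and 2409.3 on the E14 vehicle arrays and at 3796.1 and 3998.9 at E16 (0.73 ± 0.15 SE, limma adjusted p = 0.0036). In vinclozolin it was at 2181.3 and 2115.4, then 3612.8 and 3289.2 (0.68). Uqcrc1 was at 2821.3 and 3016.2, then 2487.7 and 2079.3 in vehicle, a difference of -0.36 (limma adjusted p = 0.100). In vinclozolin it was at 3576.4 and 2611.0, then 2347.9 and 2662.1, a difference of -0.29, and the arrays overlapped. Under quantile normalization Uqcrc1 fell in both arms (-0.55 and -0.47, limma adjusted p = 0.00829 and 0.0144). The small subunits Uqcrh (0.59 and 0.61 in vehicle and vinclozolin) and Uqcr10 (0.58 and 0.41) rose in both arms. Uqcrq rose in vehicle (0.69), and its difference in vinclozolin was 0.42, which did not pass. The Rieske iron-sulfur protein Uqcrfs1 differed by -0.12 and -0.09. Uqcrc2 and Uqcrh passed in both arms whichever array was left out. Uqcrq did not pass without E14 vehicle replicate 2 or either E16 vehicle array, and Uqcr10 did not without E14 vehicle replicate 2, E16 vehicle replicate 2, E14 vinclozolin replicate 2 or either E16 vinclozolin array.

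Complex IV, cytochrome c oxidase, reduces oxygen. Its small membrane subunit Cox7c was at 3313.9 and 2889.4 at E14 in vehicle and at 6437.0 and 6115.4 at E16 (1.02 ± 0.13 SE, limma adjusted p = 0.00019). In vinclozolin it was at 2842.7 and 2655.3, then 5554.5 and 5207.9 (0.97, limma adjusted p = 0.000171). The 4 E13 arrays had 3724.4 to 4267.1, between the other stages. Cox7b rose by 0.95 and 0.67 in vehicle and vinclozolin, Cox6c by 0.66 and 0.61, and Ndufa4, first assigned to complex I and now counted with complex IV, by 0.66 and 0.50. Cox4i1, the common isoform of the regulatory subunit 4, differed by 0.16 and 0.13. Cox7c and Cox6c passed in both arms whichever array was left out. Cox7b did not pass in vinclozolin without E16 replicate 1, and Ndufa4 did not without E16 vehicle replicate 1, E14 vinclozolin replicate 2 or E16 vinclozolin replicate 1.

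The ATP synthase had the highest share of risers in vehicle. Atp5pf, coupling factor 6 of its stalk, was at 2322.7 and 2630.2 at E14 and at 4297.1 and 4868.3 at E16 (0.88 ± 0.13 SE, limma adjusted p = 0.000314). In vinclozolin it was at 2613.1 and 2312.4, then 4454.3 and 3800.6 (0.74). The E16 arrays lay above all E14 and E13 arrays, of which the highest was 3194.3. Atp5mk, a small subunit of the membrane part, rose by 0.97 ± 0.16 (SE, limma adjusted p = 0.0008) and by 0.87. Atp5if1 encodes the inhibitor that stops the enzyme from running backwards. It was at 1502.4 and 1363.3, then 3269.1 and 2301.3 in vehicle (0.93 ± 0.21 SE, limma adjusted p = 0.00552), and at 1542.3 and 1325.0, then 2112.2 and 2033.9 in vinclozolin, where 0.53 did not pass (limma adjusted p = 0.0678). Of the catalytic F1 head, 2 of 5 subunits rose in both arms, Atp5f1c (0.52 and 0.61) and Atp5f1e (0.70 and 0.64). The large Atp5f1a (-0.06 and -0.03) and the catalytic Atp5f1b (-0.25 and -0.33) did not pass on the deposited scale. Under quantile normalization Atp5f1b fell in both arms (-0.48 and -0.63, limma adjusted p = 0.00762 and 0.00074). Atp5f1a then fell in vinclozolin (-0.28, limma adjusted p = 0.0493). Atp5f1b was at 6461.0 and 6654.1 at E14 and at 6443.0 and 4731.4 at E16 in vehicle, where replicate 1 of E16 was close to the E14 arrays. Of the other 11 complex V members, which include Atp5if1, 8 rose in vehicle and 7 in vinclozolin, with medians of 0.59 and 0.53, against -0.06 and -0.03 for F1. This split was also made after the values were seen, and the difference between the classes was not tested. Atp5pf and Atp5mk passed in both arms whichever array was left out. Atp5if1 did not pass without E16 vehicle replicate 1 (limma adjusted p = 0.0684), Atp5f1c did not without replicate 2 of either vehicle stage or E16 vinclozolin replicate 1, and Atp5f1e did not without the last of these.

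Of the assembly factors, Sdhaf3, which helps iron-sulfur insertion into complex II, was at 234.8 and 245.6, then 383.9 and 654.2 in vehicle (1.02 ± 0.21 SE, limma adjusted p = 0.00396). Its difference in vinclozolin was 1.22. Sdhaf4 differed by 0.89 and 0.75 and Ndufaf4, a complex I assembly factor, by 0.62 and 0.94. Without E16 vehicle replicate 2, Sdhaf3 did not pass in vehicle (limma adjusted p = 0.0573), and Ndufaf4 did not pass without that array or E14 vehicle replicate 1. Across all 86 genes, 8 were lower at E16 in both arms on the deposited scale, where none of them passed the test: Atp5f1a, Atp5f1b, Atp5f1d, Ndufa4l2, Ndufv1, Sdhc, Uqcrc1 and Uqcrfs1. Under quantile normalization Atp5f1b and Uqcrc1 fell in both arms and Atp5f1a fell in vinclozolin, so the absence of falls depends on the normalization.

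**Figure D2:**
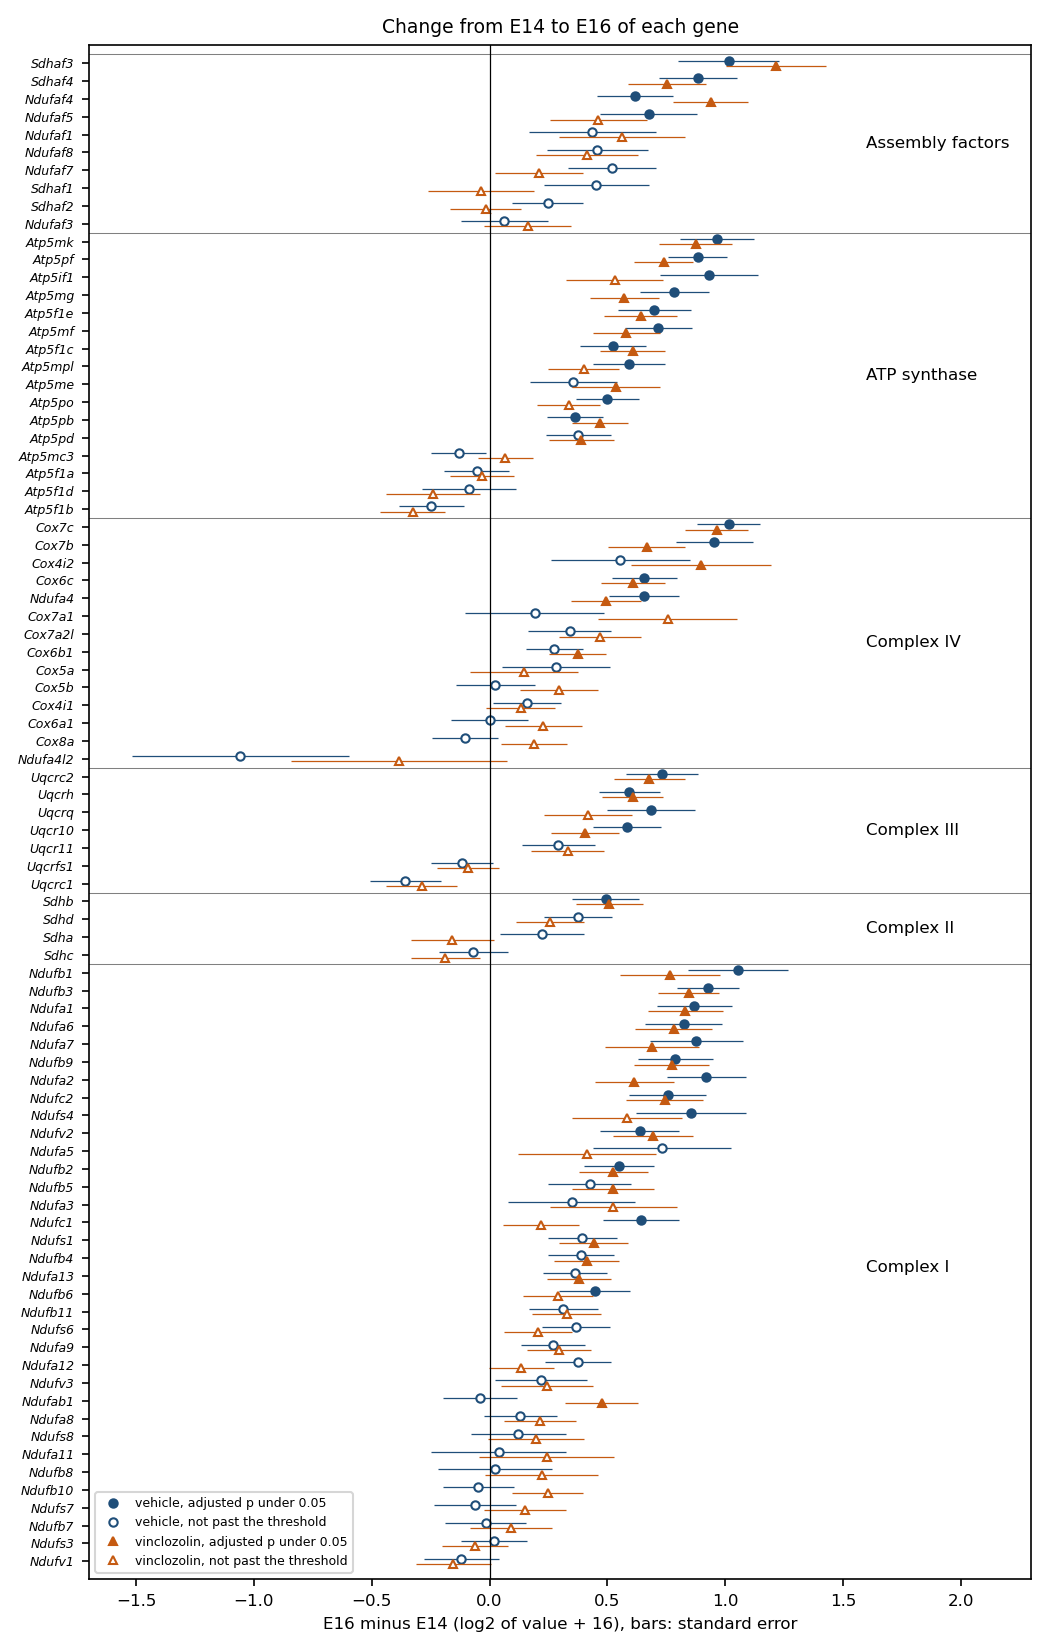
Difference E16 minus E14 (x axis, log2 of value + 16) of each tested gene except Cox6c-ps1 (y axis, grouped by complex), in vehicle (circles) and vinclozolin (triangles), with standard errors as bars and filled symbols where the adjusted p was under 0.05. Filled symbols lie right of 0 in every block, with Cox7c at 1.02 and 0.97, and Uqcrc1 lies left of 0 in both arms, at -0.36 and -0.29, with open symbols.

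Cell type markers moved over the same days, when 12.6% of all genes tested rose and 12.9% fell in vehicle. In vinclozolin 15.4% rose and 18.3% fell. All 8 Leydig cell markers rose in both arms, and their summed signal went from 1180.7 to 1777.3 at E14 to 14401.2 to 25131.8 at E16, over both arms. Of 5 peritubular and muscle markers, 4 rose in vehicle and 3 in vinclozolin. Of 5 blood markers, 3 rose in each arm, with sums of 3572.9 to 13348 at E14 and 16741.9 to 29938.3 at E16. Of 6 mesonephros markers, 3 fell in vehicle and 2 in vinclozolin. Of 7 Sertoli cell markers, 1 rose and 1 fell in vehicle and 1 rose and 3 fell in vinclozolin, and of 4 endothelial markers 1 fell in each arm. Of 3 germ cell and 5 macrophage markers tested, 1 each fell in vehicle and 0 passed in vinclozolin. None of the markers was at 0 on any array. Their part in the rise of the respiratory genes was not tested. In these bulk samples, fewer cells of a type and less RNA per cell cannot be told apart.

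Other mitochondrial lists were counted over the same step, where 12.6% of all genes tested rose and 12.9% fell in vehicle. In vinclozolin these shares were 15.4% and 18.3%. Of 73 mitochondrial ribosomal protein genes, 25 rose and 1 fell in vehicle (median 0.29) and 17 rose and 3 fell in vinclozolin (median 0.23). Of 15 genes of the citric acid cycle and pyruvate dehydrogenase, 5 rose and 2 fell in vehicle (median 0.08). Dld, a subunit shared by the dehydrogenase complexes, rose by 1.01, Sucla2 by 0.81 and Pdha1 by 0.76, while Ogdh fell by 0.48 and Mdh2 fell by 0.40. Of 18 genes of mitochondrial DNA upkeep and biogenesis, 4 rose and 2 fell (median 0.01). Ssbp1, which coats single-stranded mitochondrial DNA, rose by 0.98, and the regulator Nrf1 fell by 0.95. Of 13 carriers and channels, 4 rose and 1 fell, among them Slc25a31, the testis ADP/ATP carrier, at 2.18, and Mpc1 of the pyruvate carrier at 1.00. Of 35 genes of cytochrome c and assembly, a list that shares the Sdhaf genes with those above, 6 rose and 2 fell (median 0.09).

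Glycolysis went the other way, against the same shares of all genes tested. Of 18 genes, 9 fell and 1 rose in vehicle (median -0.36), and 8 fell and 0 rose in vinclozolin (median -0.29). The glucose transporter Slc2a3 fell by 1.32, the lactate transporter Slc16a3 fell by 1.31 and hexokinase Hk2 fell by 0.96, while Ldhb, the lactate dehydrogenase subunit common in oxidative tissue, rose by 0.60. Of 45 cytosolic ribosomal protein genes, also short and bright transcripts, 5 rose and 0 fell in vehicle (median 0.31), and 25 rose and 1 fell in vinclozolin (median 0.41). The medians of these cytosolic ribosomal genes were near those of the respiratory genes, but under quantile normalization they were 0.12 against 0.28 in vehicle and 0.09 against 0.28 in vinclozolin, where 8 of the 45 rose and 2 fell.

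Against E13, fewer genes passed in each arm than against E14. In vehicle, 22 of 86 genes rose from E13 to E16 and 0 fell (6.4% and 4.63% of all genes tested), with a median of 0.33. By complex these were 10 of 34, 0 of 4, 2 of 7, 3 of 14 and 6 of 16 in complexes I to V, and 1 of 10 assembly factors. Without E13 vehicle replicate 1, one of the arrays with high Xist, the count was 0. It was 7 without E16 vehicle replicate 1 and 8 without E16 vehicle replicate 2. In vinclozolin 9 rose and 0 fell (5.02% and 3.43%), with a median of 0.32, and the count was 4 without E13 vinclozolin replicate 2 and 0 without any other of the 4 arrays. Under quantile normalization 9 rose and 1 fell in vinclozolin, with a median of 0.29, and 11 rose and 0 fell in vehicle, with a median of 0.25. From E14 to E16 the medians under quantile normalization were 0.28 in both arms. The difference between these steps was not tested. On the deposited scale, the 6 genes that rose from E13 to E16 in both arms are 27.27% of the 22 and 66.67% of the 9. This overlap was not computed over all genes tested either. Over the mean of both arms, with 4 arrays a stage, 38 rose and 1 fell (13.1% and 10.8%). The 1 that fell was Ndufa4l2, at -1.18. Under quantile normalization 32 rose and 2 fell, Ndufa4l2 at -1.18 and Atp5f1b at -0.32. On the deposited scale, the count of calls was 24 without E13 vehicle replicate 1, 23 without E13 vinclozolin replicate 1, 25 without E16 vinclozolin replicate 1 and 10 without both E13 arrays numbered 1.

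From E13 to E14, no respiratory gene passed the test in vehicle (1.46% of all genes rose and 1.88% fell), with limma unadjusted p under 0.05 for 12 genes, 1 higher and 11 lower at E14. Without E14 vehicle replicate 2, 1 gene passed. The median was -0.10, against 0.05 for all genes tested. In vinclozolin 3 rose and 6 fell (10.8% and 9.08%), with a median of -0.11 against 0.11. Ndufs7, an iron-sulfur subunit of complex I, rose by 0.59, Uqcrc1 by 0.60 and Sdhaf1 by 0.83. Ndufs1 fell by 0.54, Uqcrc2 fell by 0.65, Cox7c fell by 0.52, Atp5mk fell by 0.49, Ndufaf4 fell by 0.65 and Sdhaf4 fell by 0.53. Here Uqcrc1 and Uqcrc2 moved in opposite directions. Each of the 9 calls was lost without at least 1 of the 4 arrays, and the count was 4 without E13 replicate 1, 1 without E13 replicate 2, 1 without E14 replicate 1, 7 without E14 replicate 2 and 5 without both E13 arrays numbered 1. Under quantile normalization the medians from E13 to E14 were nearer to those of all genes in vehicle, at -0.03 against -0.001. In vinclozolin they were 0.003 against 0.08.

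Some subunits have tissue isoforms. Cox4i2, the oxygen-responsive isoform of subunit 4, was dim in utero, at 81.8 to 115.8 at E13, 59.7 to 126.1 at E14, and 118.6, 155.1, 178.9 and 175.6 at E16. Its difference E16 minus E14 was 0.90 in vinclozolin (limma adjusted p = 0.033) and 0.55 in vehicle, where it did not pass. In vinclozolin it did not pass without E14 replicate 2 or either E16 array. The muscle isoform Cox7a1 was at 32.5 to 78.7 in utero and passed in neither arm (0.19 and 0.76). The related Cox7a2l was at 1831.2 to 3409.7 in utero, with differences of 0.34 and 0.47 that did not pass. Cox6a1 (0.00 and 0.23) and Cox8a (-0.11 and 0.19), whose muscle partners were too dim to test, did not pass either. Ndufa4l2, the hypoxia-induced relative of Ndufa4, was at 8.2 to 105.1 in utero with overlapping stages (-1.06 and -0.39, not passed). Of the ATP synthase c subunit genes, Atp5mc3 had a probe set of 1 symbol and differed by -0.13 and 0.07. The probe sets found for Atp5mc1, Atp5mc2 and Cox7a2 carry several symbols and were not used. Cox7b2, a testis isoform left out of the list above, was at 20.4 to 35.9 on the E13 and E14 arrays and at 195.9, 330.4, 225.8 and 227.5 at E16, a rise of 2.71 in vehicle (limma adjusted p = 2.927e-05) and 2.43 in vinclozolin. After rescaling it was at 17.2 to 35.3 on the 4 arrays of the vinclozolin culture and at 48.5 to 64 on the 4 of the flutamide culture. Cox6b2, likewise left out, rose in vinclozolin (0.83, limma adjusted p = 0.0134) and differed by 0.54 in vehicle, which did not pass.

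Cultured testes were set against the embryo after all arrays were rescaled to 1 trimmed mean, and culture and array set cannot be told apart. After 3 days in DMSO, the respiratory genes stood near their E13 level: 5 of 86 rose and 5 fell against E13 vehicle (9.68% and 13.5% of all genes tested), with a median of -0.02. The risers were Ndufa7 (0.66), Ndufaf4 (0.55), Ndufb9 (0.46), Uqcrc2 (0.45) and Atp5po (0.40). Cox4i2 fell by 1.21, Atp5f1d, the delta subunit of the F1 head, fell by 0.72, and the complex I core subunits Ndufv1 and Ndufs1 fell by 0.69 and 0.52. Uqcrc1 fell by 0.50. The count was 4 without either E13 vehicle array, 3 without culture DMSO replicate 1 and 1 without culture DMSO replicate 2, and every one of these genes lost its call without at least 1 array. Under quantile normalization 8 rose and 5 fell.

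Against E16 vehicle, which matches the embryonic age at the end of culture, 32 of 86 genes were lower in DMSO culture and 0 higher (13.7% and 9.15% of all genes tested), with a median of -0.35. By complex, 15 of 34 fell in complex I, 0 of 4 in complex II, 4 of 7 in complex III, 4 of 14 in complex IV, 6 of 16 in complex V and 3 of 10 assembly factors. Ndufb1 fell by 1.29, Ndufa5 fell by 1.06 and Ndufv3 fell by 1.04. Uqcrq of complex III fell by 0.87. In complex IV, Cox4i2 fell by 1.62, Ndufa4 fell by 0.69 and Cox7c fell by 0.58. In complex V, Atp5f1d fell by 0.79, Atp5mf fell by 0.72 and Atp5mk fell by 0.59. Cox4i2 was at 31.8 and 34.7 in DMSO culture, rescaled, and at 118.6 and 155.1 at E16. The count was 7 without culture DMSO replicate 2, 16 without E16 vehicle replicate 1 and 21 with only the groups compared in the fit. Quantile normalization gave 24 lower and 1 higher, with a median of -0.18. Ndufb1, Ndufv3 and Cox4i2 passed whichever array was left out. The other genes named here did not pass without culture DMSO replicate 2.

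Markers differed between culture and embryo as well. Against E16 vehicle, all 5 blood markers were lower in DMSO culture, with sums of 298.4 to 436 against 16741.9 to 29938.3. All 5 peritubular and muscle markers were lower, with sums of 536.2 to 832 against 3429.5 to 3907. Of 4 endothelial markers 3 were lower (731.4 to 799.1 against 1577.3 to 1873), and of 8 Leydig cell markers 4 were lower (9418.5 to 9479.9 against 14401.2 to 22495.6). Of 7 Sertoli cell markers 2 were higher, with sums of 16011.6 to 18360.5 against 10416.1 to 11471.1. Of 3 germ cell markers 1 was lower (60.9 to 92.4 against 156.5 to 255.4), of 5 macrophage markers tested 2 were lower (285.2 to 293.7 against 432.5 to 566.1, summed over all 6 measured), and of 6 mesonephros markers 1 was lower. Against E13 vehicle, all 8 Leydig cell markers were higher in DMSO culture, 4 of 7 Sertoli cell markers were higher and 1 lower, and 3 of 4 endothelial and 3 of 5 blood markers were lower, while the respiratory genes had a median of -0.02. The part of these cells in the respiratory values was not tested.

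**Figure D3:**
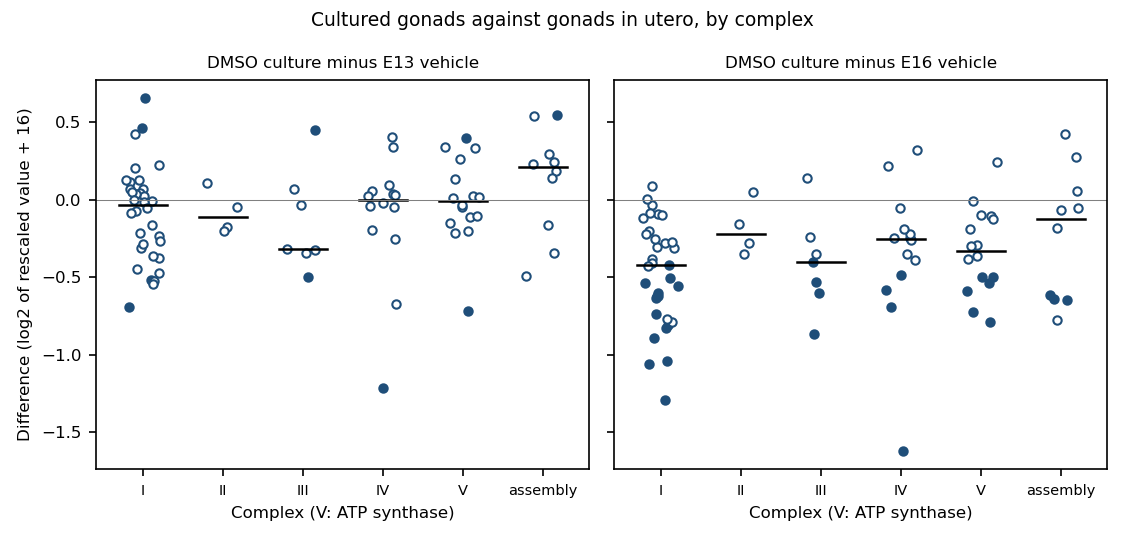
Difference of each tested gene except Cox6c-ps1 (points, filled where the adjusted p was under 0.05) between DMSO culture and the embryo (y axis, log2 of rescaled value + 16), by complex (x axis), with black lines at the medians. Points scatter around 0 against E13 vehicle (left) and lie mostly below 0 against E16 vehicle (right), where Cox4i2 is the lowest, at -1.62.

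The ethanol cultures differed from E13 vehicle more widely. Of 86 genes, 38 were lower and 2 higher (13.7% and 16.3% of all genes tested), with a median of -0.39, which was -0.25 under quantile normalization. By complex, 19 of 34, 3 of 4, 5 of 7, 4 of 14 and 5 of 16 fell in complexes I to V, and 2 of 10 assembly factors. The accessory complex I subunits Ndufa11 and Ndufb8 fell by 1.75 and 1.33, and Ndufa3 to 0.354 times its E13 level. Ndufa11 was at 609.8 and 683.2 in ethanol culture, rescaled, and at 2473.4 and 1959.4 at E13. In complex II, Sdhc fell by 0.86, Sdhd fell by 0.85 and Sdhb fell by 0.58. Cox6a1 fell by 0.94 and Atp5f1d fell by 0.99. Cox5a rose by 0.76 and Cox6c-ps1 rose by 1.05. The Cox5a probe set used was dim for a subunit, at percentiles 60.48 and 70.85 on the E13 vehicle arrays and 75.38 and 75.75 in ethanol. Another Cox5a probe set carries several symbols and was not used. Cox5a did not pass without E13 vehicle replicate 1 or either ethanol array, Cox6c-ps1 not without ethanol replicate 2, and Sdhb not without E13 vehicle replicate 2. The other genes named here passed whichever array was left out. On the deposited scale, where these arrays have a lower trimmed mean, 83 genes were called and Cox5a differed by -0.14. The count was 25 without E13 vehicle replicate 2 and 24 without culture ethanol replicate 1. These arrays also have the high beta-actin 3' to 5' ratios given above, whose part was not tested. All 8 Leydig cell markers were higher in ethanol culture (sums of 13749 to 14391.5 against 975.9 to 1028.3 at E13), 4 of 7 Sertoli cell markers were higher and 1 lower (13035.7 to 13214.5 against 6237.1 to 8776.4), and 3 of 5 macrophage markers tested were higher. Of 6 mesonephros markers 1 was higher and 1 lower (989 to 1014.1 against 1434.1 to 1973.5). In the peritubular, endothelial, blood and germ cell lists 1 marker each was lower. The part of these cells was not tested either.

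Vinclozolin in utero changed no respiratory gene past the threshold. Limma called 0 of 86 at E13, at E14, at E16 and over the mean of the stages. The background was as low: 0% of all genes tested rose or fell in these comparisons, except 0.00857% that rose at E14. An unadjusted p under 0.05 was found for 0 genes over the mean, 1 at E13 (Uqcrc1), 0 at E14 and 2 at E16 (Ndufab1 and Atp5mg). Over the mean of the stages 70 of 86 genes were lower and 16 higher, where 6225 of all 11666 genes tested were lower. The median was -0.07 over the mean (all genes -0.01), -0.05 at E13 (-0.02), -0.07 at E14 (0.01) and -0.11 at E16 (-0.01). Under quantile normalization it was -0.03 over the mean (all genes -0.02) and -0.03 at E16 (-0.05). Without E14 vinclozolin array 2, 27 genes were lower and 59 higher at E14, with a median of 0.08, and 52 were lower over the mean, with a median of -0.02. Without both E13 arrays numbered 1, 55 were lower at E13 and 70 over the mean. The 95% intervals of the mean over stages stayed within a factor of 2 for all 86 genes, extending a median of 0.19 to each side. At each single stage this held for 85, all but Ndufa4l2.

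The members nearest to a difference changed from stage to stage. Uqcrc1 at E13 was at 1963.7 and 2055.0 with vinclozolin and at 2365.4 and 2684.6 with vehicle, a difference of -0.32. The arrays did not overlap, but the E14 values of vinclozolin, 3576.4 and 2611.0, lay on both sides of those of vehicle. Ndufab1, the acyl carrier protein bound to complex I, was at 3231.4 and 2910.5 at E16 with vinclozolin and at 1999.8 and 2771.5 with vehicle, a difference of 0.38. Atp5mg, of the ATP synthase membrane part, was at 5142.6 and 4921.1 against 7046.1 and 5606.5, a difference of -0.32. Over the mean of the stages, the smallest p in each complex belonged to Ndufb3 (-0.14), Sdhd (-0.07), Uqcrq (-0.17), Ndufa4 (-0.18) and Atp5mg (-0.18). A moderated F test for an effect that differs between stages called 0 genes, with an unadjusted p under 0.05 for 0 of 86 genes.

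**Figure D4:**
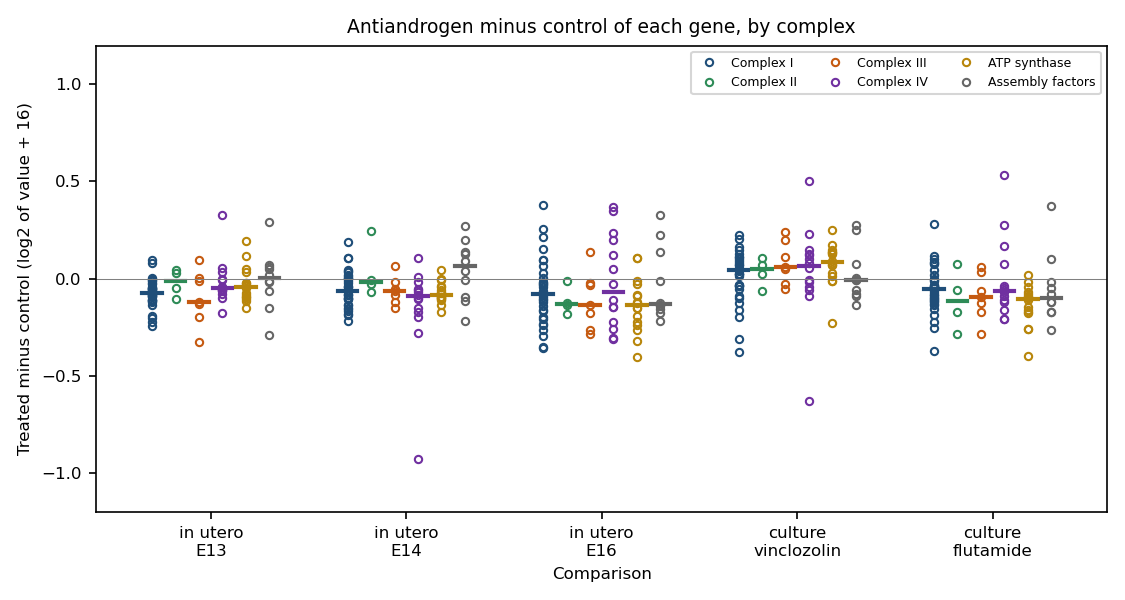
Difference of each tested gene except Cox6c-ps1 from the matching control (points, y axis, log2 of value + 16), coloured by complex, for vinclozolin in utero at each stage and for 50 µM vinclozolin and 0.5 µM flutamide in culture (x axis), with short lines at the medians of each complex. Most points lie near 0, all are open because none passed the test, and the lowest, Ndufa4l2 at E14, is at -0.93.

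In culture, 50 µM vinclozolin and 0.5 µM flutamide each gave 0 of 86 calls by limma, with 0% of all genes tested called. The doses and solvents differ, so the values stand side by side. With vinclozolin 30 genes were lower and 56 higher than in DMSO (median 0.05), where 4803 of all 11666 genes tested were lower (median 0.04). With flutamide 67 were lower and 19 higher than in ethanol (median -0.08), where 6168 of all genes tested were lower (median -0.01). Under quantile normalization the medians were 0.03 with vinclozolin (all genes 0.04) and -0.04 with flutamide (all genes -0.02). With the replicate number as a block, which may stand for the split gonad pairs though the labels do not say so, both comparisons again gave 0 calls. An unadjusted p under 0.05 was found for 1 gene with vinclozolin and for 2 with flutamide. Cox4i2 was at 27.7 and 8.3 with vinclozolin and at 33.0 and 36.0 in DMSO, a difference of -0.63 (95% interval -1.26 to -0.01). The 8.3 was on vinclozolin replicate 2, the array with Xist at 112.8, and lay at percentile 12.84 of that array. With flutamide Cox4i2 was at 45.7 and 52.5, against 30.6 and 27.2 in ethanol, a difference of 0.54. Atp5mpl, a small membrane subunit of the ATP synthase, was at 442.1 and 470.2 with flutamide and at 610.9 and 602.3 in ethanol, a difference of -0.40 (95% interval -0.72 to -0.08). Ndufb9 was at 1494.4 and 1526.8 against 2046.1 and 1882.9, a difference of -0.37 (95% interval -0.71 to -0.04). The smallest p in the other complexes belonged to Ndufa2 (0.22), Sdhc (0.10), Uqcrh (0.20) and Atp5po (-0.23) with vinclozolin, and to Sdhd (-0.28) and Uqcrc2 (-0.28) with flutamide. The 95% intervals stayed within a factor of 2 for 84 genes with each compound, extending a median of 0.33 to each side, and the exceptions were Cox4i2 and Ndufa4l2.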

How the data were processed

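RNA of 20 samples (10 groups of 2) was hybridized to Affymetrix rat arrays. The deposited values are MAS5 signal intensity on a linear scale (GCOS is also named for the 8 culture samples), per the submitters' processing notes; the sources used here give no software versions. A check of the tables found 1 trimmed mean (2% left out at each end) per array set: 210.1 for the in utero arrays, 218.1 for vinclozolin culture and 107 for flutamide culture. Culture was compared with the embryo after rescaling all arrays to 210.1.

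Of 31042 probe sets without controls, 22526 reached the 40th percentile of their array on at least 2 arrays. They were fitted as log2(value + 16) by limma 3.58.1 (R 4.3.3) over all 20 arrays, with a mean for each group, a variance trend, two-sided tests and Benjamini-Hochberg adjustment over all probe sets tested (threshold 0.05). Counts over all genes use 1 probe set per gene (11666 genes). The script was tested on simulated data. With 10 residual degrees of freedom and 2 arrays a group, precision is limited by the number of arrays.

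The respiratory genes, pathway lists and markers were chosen with earlier results of these data known. Named genes were, per complex and comparison, up to 3 largest rises and falls past the threshold, or the smallest p where none passed, plus complex II, the isoform groups and Atp5if1. Other genes were named after their values were seen. Symbols came from the platform annotation updated through RefSeq. Of the 88 genes, 10 had several probe sets, and 7 probe sets with several symbols were not used. Sequences are from RefSeq promoters (GRCr8). Alternatives were another normalization, pseudocount, filter, fit and sample set.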

Additional observations from a re-analysis of the deposited data

How the results depend on the processing

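The rise from E14 to E16 in vehicle (36 calls) stayed within 1.5 times under the alternatives run, with 25 to 30 calls when 1 array was left out. Of its 36 genes, 18 kept their call in every alternative, and 14 of 37 did in vinclozolin. Over all comparisons, 65 of 234 called gene values kept their call throughout. In vinclozolin the count of 37 was 24 with only the groups compared, and 14 to 38 when 1 array was left out.

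E16 minus E13 in vehicle (22 calls) gave 11 with quantile normalization, 13 without the filter, 8 without the variance trend, 0 with only the groups compared, 10 with only arrays of the same experiment and 1 without both E13 arrays numbered 1. Leaving out 1 array gave 0 to 19. In vinclozolin (9 calls) it gave 3 without the filter, 1 without the trend, 1 with the same experiment, 0 without both E13 arrays numbered 1, and 0 to 4 without 1 array. The mean of the arms (39 calls) gave 10 without those arrays and 23 to 39 without 1 array. E14 minus E13 in vinclozolin (9 calls) gave 0 with only the groups compared, 4 with the same experiment, 5 without both E13 arrays numbered 1, and 1 to 7 without 1 array. In vehicle (0 calls) it gave 0 to 1.

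DMSO culture minus E13 (10 calls) gave 5 without the trend, 2 with only the groups compared, 4 without both E13 arrays numbered 1, and 1 to 4 without 1 array. DMSO culture minus E16 (32 calls) gave 21 with only the groups compared and 7 to 31 without 1 array. Ethanol culture minus E13 (40 calls) gave 83 on the deposited scale, where Cox5a changed sign to -0.14, and 24 to 37 without 1 array. The antiandrogen comparisons gave 0 to 0 when 1 array was left out. The cause of these changes was not tested, beyond the fewer arrays in the reduced fits.

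Replicate numbers were shared between groups, but the deviations of same-numbered arrays correlated at 0.602 (E13), -0.055 (E14), -0.112 (E16), 0.115 (vinclozolin culture) and 0 (flutamide culture), so the numbers were not shown to pair the arrays. The labels describe split gonad pairs in culture but do not say that a number marks them. The replicate block gave 0 calls in every antiandrogen comparison, in utero and in culture, and among the other comparisons moved a count by over 1.5 times only against E13 at E16. With it, E16 minus E13 gave 14 calls in vehicle and 2 in vinclozolin, and with the E16 vinclozolin numbers crossed, an alternative chosen after seeing the data, 12 and 3.

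Rescaling of all arrays, the deposited scale in culture, the crossed block, and the values without both E13 arrays numbered 1 or with antiandrogen medians taken without E14 vinclozolin array 2, were chosen after seeing the data. Other probe sets of these genes had the same sign as the leading one in 7 of 9 tested cases from E14 to E16 in vehicle.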
